A study of Mus musculus with 9 samples.

Results

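The probes described here read transcripts that carried no gene symbol when the array was designed: consensus sequences of expressed sequence tags (names beginning TC), sequences named NAP, and Ensembl transcripts (ENSMUST). A probe was a member if it was no control spot, if its gene name was only its sequence identifier, and if that identifier began with one of these 3 prefixes. The members were 2237 of 41174 probes, 444 of them TC, 1011 NAP and 782 ENSMUST, and they stood for 2185 identifiers. Each was a 60-base oligonucleotide, and 302 had no genome position in the files.

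RNA came from mouse pro-B cells (C57Bl/6) that had been transformed with the Abelson virus A-MuLV and carried Ebf1 fl/fl with the tamoxifen-dependent Cre recombinase RERTCre. Cells were treated with 2 µM 4-hydroxytamoxifen, which removes Ebf1, a transcription factor of early B cells; the source label of EBF1wt replicate 3 leaves this out, but its description gives it. Mock cells (3 arrays) were mock-transduced and were collected 4 days after tamoxifen. EBF1wt cells (3 arrays) had received the retroviral vector pmys with full-length EBF1 and an IRES-GFP cassette, and EBF1ΔC cells (3 arrays) the same kind of vector with an EBF1 lacking its C-terminus; tamoxifen followed 24 h after transduction in both, GFP-positive cells were sorted after 5 more days, and the cells were used over 2 weeks after the sort. Time in culture and sorting therefore cannot be told apart from EBF1 in any comparison with Mock, nor can the slides and the scan day, which Mock shared with neither EBF1 group. The labels do not state separate cultures, so the p-values cover the spread among these arrays alone, which may be technical, and the small number of arrays limits the precision.

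Levels are log2 signals from which the 75th percentile of the array was subtracted. Ebf1 was read by 2 probes. The first gave 1.73, 1.47 and 1.17 in Mock, 3.17, 2.87 and 3.16 in EBF1wt, and 3.81, 3.74 and 3.85 in EBF1ΔC; the second was well above background on the 3 Mock arrays and on none of the other 6. The position of either probe relative to the deleted part is not given in the sources used here, so neither checks the deletion. The pro-B markers Cd79b, Vpreb1 and Rag1 were each well above background on all 9 arrays by at least 1 probe. They also moved: against Mock, Vpreb1 differed by 3.50 and Cd79b by 1.08 in EBF1wt, and by 3.59 and 0.96 in EBF1ΔC. Not every pro-B marker rose: Pax5 differed by 0.25 in EBF1wt and 0.08 in EBF1ΔC and did not pass. The Dntt probes differed by -0.62, -0.51 and -0.33 in EBF1wt, and none passed. In EBF1ΔC the Dntt probes differed by 0.88, 0.65 and 1.03, and the last alone passed. None of 3 stromal markers was well above background in any group. A probe of the globin gene Hbb-b1, an erythroid marker, stood at 8.66, 8.58 and 8.43 in Mock, 2.43, 1.67 and 1.99 in EBF1wt, and 1.81, 2.39 and 1.22 in EBF1ΔC. Of 4 mature B-cell markers, H2-Aa, an MHC class II chain, carried most of the summed linear signal in Mock. It differed from Mock by -6.85 in EBF1wt and -3.89 in EBF1ΔC at 1 probe. Ms4a1 was the exception in this list, as neither of its probes passed (-0.34 and -0.52 in EBF1wt, 0.46 and 0.43 in EBF1ΔC). Every other marker of the list passed as lower than Mock in both EBF1 groups by at least 1 probe. Of 4 myeloid markers, Lyz2, the lysozyme gene, passed in each comparison: 1 of its probes stood at -1.73, -1.25 and -1.74 in Mock, 1.41, -1.20 and 1.24 in EBF1wt, and 3.94, 3.84 and 2.98 in EBF1ΔC. For the other 3 (Itgam, Csf1r and Mpo), no group had a probe detected on each of its arrays, so they were not tested. These levels moved with the groups, and their part in the results was not tested.

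Of the positioned members, 55 lay in the immunoglobulin heavy chain locus, 64 in the kappa locus and 5 in the lambda locus. Antibody genes are assembled in developing B cells from separate variable (V), diversity (D) and joining (J) segments by the Rag1 and Rag2 recombinase, the heavy chain locus before the light chain loci kappa and lambda. The recombinase cuts at signal sequences beside each segment that begin with the heptamer CACAGTG, and unrearranged V segments can also be transcribed as germline transcripts. Within each locus V segments form families of closely similar sequence, so that a probe can read more than 1 segment. In bulk RNA, fewer cells with a transcript and less transcript per cell cannot be told apart.

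The probe sequences show what was read. They are given 5′ to 3′ as in the files, with positions in mm9. In the first pair, which is shown because 1 of its probes had no position, the capitals mark the longest run of identical bases, 40 in all: ENSMUST00000103552 (described as a heavy chain V segment, chr12:117238239-117238298, minus strand) and NAP107273-1 (no position).
ENSMUST00000103552: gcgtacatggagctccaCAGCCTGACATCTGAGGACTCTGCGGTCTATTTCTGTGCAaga
NAP107273-1: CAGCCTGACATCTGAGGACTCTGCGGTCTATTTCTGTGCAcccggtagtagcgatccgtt

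NAP113249-1 (chr12:116055288-116055347, minus strand) and NAP099360-001 (chr6:70468794-70468853, plus strand) are shown because both hold the heptamer CACAGTG, in capitals. In the first it began at base 39, directly after the bases gcaaga, and in the second at base 51. On either strand, CACAGTG was present in 1.27% of all probes, 1.52% of members, 1 of 55 members in the heavy chain locus and 6 of 64 in the kappa locus. A match is only a description of the letters.
NAP113249-1: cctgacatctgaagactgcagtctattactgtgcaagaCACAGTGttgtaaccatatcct
NAP099360-001: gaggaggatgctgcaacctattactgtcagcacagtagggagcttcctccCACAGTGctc

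The remaining sequences belong to some of the members with wide differences between groups, not to all of them, and have no marked part. ENSMUST00000103473 (chr12:115379078-115379137, minus strand) and ENSMUST00000103467 (chr12:115232794-115232853, minus strand) lie among the heavy chain V segments. NAP052591-1 (chr6:70676183-70676242, plus strand) lies just past the last probe described as or named for kappa. The kappa locus was taken here to end at that probe, and whether NAP052591-1 belongs to the locus was not tested. NAP094453-001 (chr9:18103341-18103404, minus strand) and NAP102400-1 (chr10:96662702-96662761, minus strand) carry no description, and NAP055718-1 (chr1:65307021-65307080, plus strand) begins with a repeat of g and t.
ENSMUST00000103473: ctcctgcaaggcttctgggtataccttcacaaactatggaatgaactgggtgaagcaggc
ENSMUST00000103467: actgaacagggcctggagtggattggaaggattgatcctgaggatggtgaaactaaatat
NAP052591-1: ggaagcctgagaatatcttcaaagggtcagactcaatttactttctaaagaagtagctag
NAP094453-001: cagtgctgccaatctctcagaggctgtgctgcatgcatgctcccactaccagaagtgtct
NAP102400-1: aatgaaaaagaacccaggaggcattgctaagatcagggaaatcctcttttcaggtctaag
NAP055718-1: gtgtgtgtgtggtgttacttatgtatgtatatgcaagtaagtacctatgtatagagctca

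Detection differed among the classes. Well-above-background calls took in 57.7% to 59.7% of TC probes on Mock arrays, 47.5% to 48.6% on EBF1wt arrays and 49.3% to 53.4% on EBF1ΔC arrays. NAP probes were detected at 51.3% to 55.2%, 46.7% to 47.4% and 48.8% to 50.6%, and ENSMUST probes at 37.3% to 41.6%, 32.0% to 32.9% and 33.4% to 35.8%. In each class the Mock arrays were the highest and the EBF1wt arrays the lowest, with no overlap between Mock and EBF1wt, and the same order held for the other probes (54.6% to 57.2%, 51.2% to 51.7% and 51.9% to 53.8%). Of the members, 827 (37.0%) were well above background on all 9 arrays and 902 (40.3%) on none, against 47.3% and 35.2% of the other probes. Detection on all 3 Mock arrays and none of the other 6 was seen for 49 members (2.19%; 1.78% of other probes), and the reverse for 4 (0.179%; 0.283%).

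**Figure D1:**
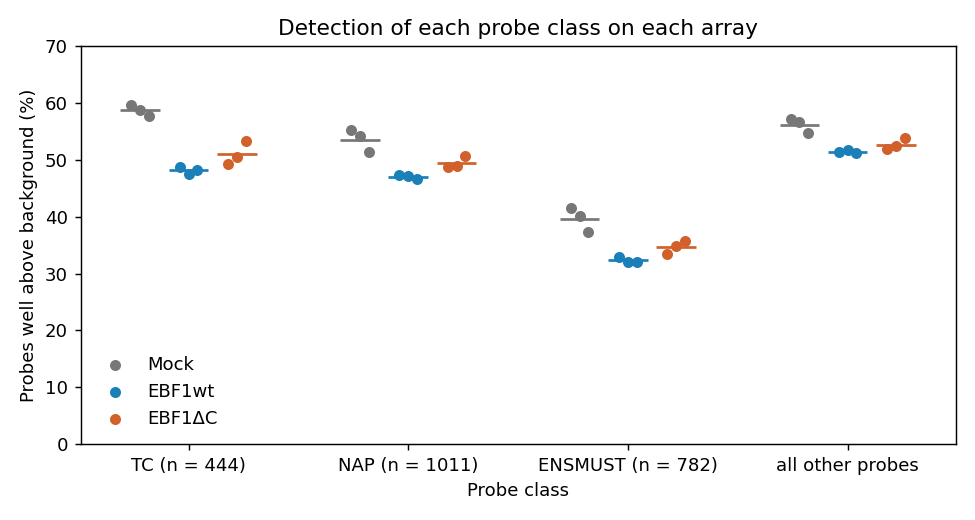
Percentage of probes well above background on each array (points; bars are the group means) for the 3 member classes and all other probes. TC probes went from 57.7% to 59.7% on Mock arrays to 47.5% to 48.6% on EBF1wt arrays.

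Probes entered the test when at least 1 group had them well above background on its 3 arrays, which kept 1056 members (244 TC, 523 NAP and 289 ENSMUST) of 22348 probes. A probe was called when the adjusted p of limma's moderated test (Benjamini-Hochberg over all tested probes) was under 0.05 and the difference at least 2-fold. Because this filter keeps a probe through the group in which it is high, counts over tested members describe those members only.

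Setting EBF1ΔC against EBF1wt compares cells given EBF1 without its C-terminus with cells given full-length EBF1. The first Ebf1 probe was also 0.74 higher in EBF1ΔC than in EBF1wt (limma adjusted p = 0.028). The level of Ebf1 and the separate transduction and sorting of the cells cannot be told apart from the C-terminus. Heavy chain V segments gave most of the members' difference: 24 of 1056 tested members were called higher in EBF1ΔC, and 22 of these lay in the heavy chain locus. Among all tested probes 1.13% were called higher, against 2.27% of the members. Outside the heavy chain locus 2 of 1021 members were called higher. Only 4 members (0.379%) were called lower, against 0.855% of all probes. No TC probe was called in either direction by limma, with 17 higher and 11 lower at an unadjusted p under 0.05, whereas 19 ENSMUST probes were called higher and 2 lower, and 5 NAP probes higher and 2 lower.

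The heavy chain locus, taken here as chr12:114496985-117238298 from the first to the last probe described as or named for it, held 55 members, 35 of them tested. Of these, 29 were read from the minus strand beyond the constant-region members, on the side of the V segments. In that set of 29, 21 were called higher in EBF1ΔC than in EBF1wt and 0 lower, the median log2 difference was 1.66 (0.00 over all tested probes), and 25 had all 3 EBF1ΔC arrays above all 3 EBF1wt arrays, as did 2817 of all 22348 tested probes. Of the 29, 19 were well above background on all 9 arrays. The median level of the 29 was -2.52, -2.49 and -2.28 on the Mock arrays, -3.25, -3.66 and -3.16 on the EBF1wt arrays, and -1.64, -1.71 and -2.19 on the EBF1ΔC arrays. EBF1wt was lowest and EBF1ΔC highest, and the 3 groups did not overlap. Of the 21 called members, 13 shared no run of 30 identical bases with any other probe and 8 did, so that some of them may have read the same transcripts; leaving out all such members over the array left 15 called higher.

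ENSMUST00000103473, described as variable V9-3, went from undetected to detected between the EBF1 groups. It stood at -5.07, -4.77 and -4.68 in Mock, -7.01, -7.62 and -7.48 in EBF1wt, and -4.57, -4.21 and -3.65 in EBF1ΔC. It was well above background on every Mock and EBF1ΔC array and on no EBF1wt array. The level in EBF1ΔC was at least 2.24-fold higher than in EBF1wt, the bound that the array background allows (measured log2 difference 3.23, SE 0.25, limma adjusted p = 0.00038). Each such bound raises the undetected group to the lowest signal well above background on each array.

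ENSMUST00000103544, a predicted gene toward the far end of the locus, stood at -5.59, -7.41 and -5.41 in EBF1wt and -3.23, -3.23 and -3.66 in EBF1ΔC, at least 3.82-fold higher in EBF1ΔC (log2 difference 2.76, SE 0.49, limma adjusted p = 0.018). ENSMUST00000103506, described as variable V1-20, was 2.48 higher on the log2 scale (SE 0.44, limma adjusted p = 0.017). Neither overlapped between the groups, and in both EBF1wt replicate 2 was the lowest array. NAP093077-001, which has no description and lies among these V segments, stood at -2.26, -3.36 and -2.45 in EBF1wt and -0.18, -0.27 and -0.69 in EBF1ΔC (log2 difference 2.31, SE 0.29, limma adjusted p = 0.0038). The heptamer probe NAP113249-1 stood at -3.64, -3.27 and -3.64 in Mock, -3.79, -4.51 and -4.23 in EBF1wt, and -2.62, -2.65 and -2.81 in EBF1ΔC. Its difference was 1.48 (SE 0.18, limma adjusted p = 0.0036), and the 2 EBF1 groups did not overlap.

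The pair with 40 shared bases moved alike. NAP107273-1 stood at -0.72, -1.54 and -1.05 in EBF1wt and 0.63, 0.56 and 0.36 in EBF1ΔC, and ENSMUST00000103552 at -1.39, -2.51 and -1.92 and at -0.29, -0.27 and -0.39. Both differences were 1.62 (SE 0.20 and 0.24), with limma adjusted p = 0.0034 and 0.0084. NAP107273-1 is 1 of the 2 called members outside the locus, for want of a position. The other, NAP017634-001, also had no position and no description; it was detected on all EBF1ΔC and no EBF1wt arrays and was at least 3.26-fold higher (limma adjusted p = 0.01). Over the array, 58 members shared at least 30 identical bases with another probe, and in the 55 pairs in which both were tested none was called in opposite directions in any comparison.

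Not every V segment differed. ENSMUST00000103467 stood at -1.31, -3.03 and -1.67 in EBF1wt and -1.27, -1.56 and -2.67 in EBF1ΔC (difference 0.17, SE 0.47), and ENSMUST00000103475 differed by 0.16 (SE 0.46). Both were higher in the EBF1 groups than in Mock, where ENSMUST00000103467 stood at -4.92, -5.05 and -5.02. For this probe the difference from Mock was 2.99 in EBF1wt and 3.16 in EBF1ΔC (SE 0.47 each), with limma adjusted p = 0.00065 and 0.0005. ENSMUST00000103443 and TC1774801 had differences of 2.42 and 2.47 between EBF1ΔC and EBF1wt but did not pass (limma adjusted p = 0.066 and 0.06). For ENSMUST00000103443, EBF1ΔC replicate 3 stood at -2.19 and the other 2 EBF1ΔC arrays at -4.66 and -4.83.

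At the other end of the locus, the constant-region members did not move as a set. ENSMUST00000103418, described as a gamma polypeptide, stood at 2.33, 1.86 and 2.60 in EBF1wt and 3.41, 3.69 and 3.92 in EBF1ΔC (difference 1.41, SE 0.20, limma adjusted p = 0.0064). The 2 probes of ENSMUST00000103426, the mu constant region of the first heavy chain a B cell makes, differed by 0.24 and 0.15 between the EBF1 groups and did not pass. Against Mock they were higher by 1.02 and 1.07 in EBF1wt and by 1.26 and 1.23 in EBF1ΔC. The other 3 constant-region probes were called lower in EBF1wt than in Mock. They were ENSMUST00000103418, by -1.35, and both probes of ENSMUST00000103416, a gamma 2C constant region, which were detected on no EBF1wt array and were at least 2.90-fold and 1.83-fold lower. Neither of the latter passed between the EBF1 groups (limma adjusted p = 0.23 and 0.34).

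**Figure D2:**
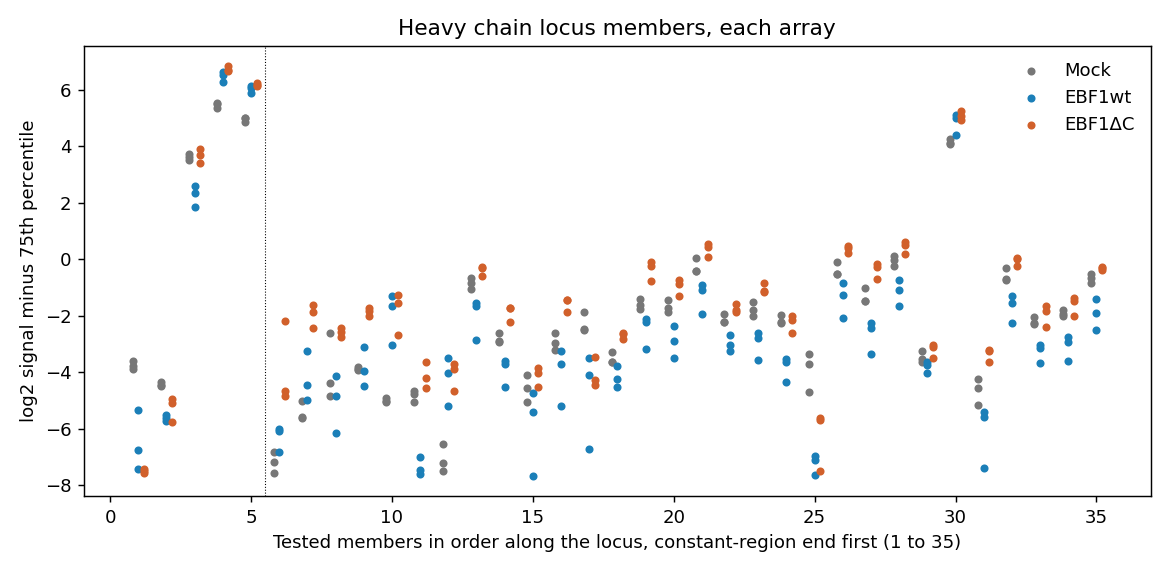
Log2 signal of the 35 tested heavy chain locus members on each of the 9 arrays, in order along the locus; the dotted line follows the 5 constant-region probes. Most members to its right have the EBF1ΔC points above the EBF1wt points (25 of the 29 V-side members on the minus strand without overlap).

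EBF1wt replicate 2 was the lowest of the 3 EBF1wt arrays for 28 of the 29 V-side members. Without it, 21 were called higher in EBF1ΔC and the median difference was 1.35. Slides 4 and 5 each held 1 array of both EBF1 groups: the median difference was 2.27 on the first, which held EBF1wt replicate 2, and 1.54 on the second, with 29 and 28 of the 29 members higher in EBF1ΔC. Rag1, part of the recombinase, moved with the V segments between the EBF1 groups but not between EBF1wt and Mock. Its first probe stood at -3.43, -2.70 and -3.48 in Mock, -0.33, -2.23 and -0.64 in EBF1wt, and 0.82, 0.84 and 1.56 in EBF1ΔC. Against Mock this probe was 2.14 higher in EBF1wt (limma adjusted p = 0.0041), where the 29 members had a median difference of -1.11. Between the EBF1 groups it differed by 2.14 (limma adjusted p = 0.039). Another Rag1 probe differed by 2.26 between the EBF1 groups and did not pass (limma adjusted p = 0.081). Nor did that probe pass between EBF1wt and Mock, where it differed by 0.40 (limma adjusted p = 0.59). The remaining Rag1 probe differed by 2.10 and 2.09 in these comparisons (limma adjusted p = 0.045 and 0.0051). The part of Rag1 in the result was not tested. With normexp background correction and quantile normalization 11 of the 29 were called, and with the slide as a fixed block none of 22348 probes was called by limma, which left 1 residual degree of freedom (25 of the 29 higher at an unadjusted p under 0.05).

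The 4 members called lower in EBF1ΔC were NAP094453-001, NAP052591-1 and 2 kappa V segments. NAP094453-001 stood at -5.39, -5.35 and -6.18 in Mock, -2.54, -2.61 and -2.92 in EBF1wt, and -6.77, -6.59 and -6.06 in EBF1ΔC. All 3 EBF1wt arrays lay above all other arrays; it was well above background on these 3, on 1 Mock array and on no EBF1ΔC array. It fell by 3.78 on the log2 scale from EBF1wt to EBF1ΔC (SE 0.26, limma adjusted p = 0.00022), a level at least 6.49-fold lower, and the difference was -3.45 and -3.84 within slides 4 and 5. From Mock to EBF1wt it rose by 2.95 (SE 0.26, limma adjusted p = 3e-05). That difference is not a measured size, since the probe was well above background on only 1 Mock array. Its nearest named gene within 10 kb, Chordc1 on the other strand, 9802 bases away, differed by -0.08 between the EBF1 groups and did not pass.

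NAP052591-1 stood at 1.25, 1.25 and 1.52 in Mock, -6.15, -4.52 and -5.75 in EBF1wt, and -7.59, -7.19 and -7.43 in EBF1ΔC. It was detected on all Mock arrays, on 1 EBF1wt array (replicate 2) and on no EBF1ΔC array. The level in EBF1ΔC was at least 106-fold lower than in Mock, the largest bound among the members, and EBF1wt also lay below Mock (limma adjusted p = 2.1e-06), by a size that the 1 array on which it was detected does not fix. The kappa V segments ENSMUST00000103330 and ENSMUST00000166380, described as 10-94 and 4-53, were lower in EBF1ΔC than in EBF1wt by -1.33 (SE 0.29) and -1.05 (SE 0.13), with limma adjusted p = 0.035 and 0.0032. The first was well above background on 1 EBF1wt and no EBF1ΔC array, so its difference is not a measured size. The second and ENSMUST00000103523 (1.24) were the called members nearest to the 2-fold limit; ENSMUST00000135792 (0.95) and ENSMUST00000103351 (-0.93) lay just outside it.

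The comparisons of each EBF1 group with Mock set sorted cells given an EBF1 vector against mock-transduced cells. Time in culture, sorting, slides and scan day differ along with EBF1. Both comparisons share the Mock arrays, so their values are given side by side and not as support for each other. In EBF1wt, 53 of 1056 members (5.02%) were called higher and 298 (28.2%) lower than in Mock, where 6.09% and 17.4% of all tested probes were. In EBF1ΔC the members' figures were 61 (5.78%) and 244 (23.1%), against 6.05% and 16.3%. The median log2 difference over members was -0.28 and -0.18, and over all probes 0.04 and 0.04.

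The classes differed in these counts. TC probes were called lower in 104 of 244 cases in EBF1wt (42.6%) and 96 in EBF1ΔC (39.3%), and higher in 4 in each. ENSMUST probes were called lower in 104 and 82 of 289 cases (36.0% and 28.4%), and higher in 14 and 21. NAP probes stood near the background, with 90 and 66 of 523 lower (17.2% and 12.6%) and 35 and 36 higher (6.69% and 6.88%). Members were also dimmer than other probes: with all tested probes split into 3 equal bands by mean signal, 514 of the 1056 members fell in the dimmest. In that band 54.3% of TC, 45.8% of ENSMUST, 36.5% of NAP and 36.1% of other probes were called lower in EBF1wt than in Mock. In the middle band the shares were 32.0%, 29.4%, 8.57% and 11.5%, and in the brightest 13.8%, 7.89%, 1.14% and 3.72%.

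The split between higher and lower changed with the scaling. With each array scaled to its median, the median difference of all probes became 0.75 in EBF1wt and 0.58 in EBF1ΔC, 66.3% and 61.3% of the called members were higher rather than 15.1% and 20%, and of all called probes 80.0% and 71.6% were higher rather than 25.9% and 27.1%. The TC median was then -0.11 and -0.19, still below that of all probes. With normexp background correction and quantile normalization 63 and 61 members were called lower in EBF1wt and EBF1ΔC.

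**Figure D3:**
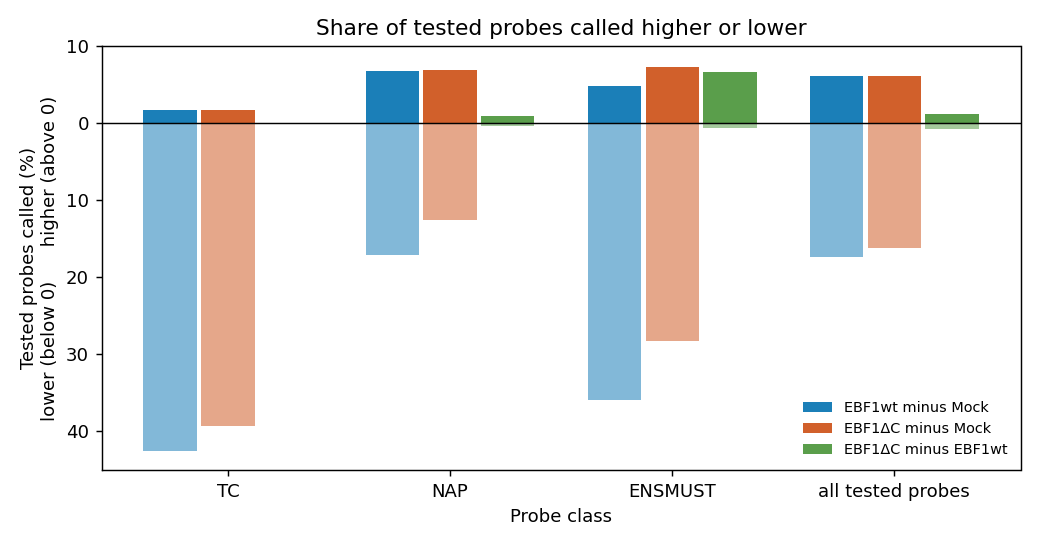
Percentage of tested probes called higher (above 0) or lower (below 0) in each of the 3 comparisons, by class and for all tested probes. TC probes reached 42.6% lower in EBF1wt than in Mock, against 17.4% of all tested probes.

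All 5 tested members of the lambda locus (chr16:19065462-19260790) were called lower than in Mock, with median differences of -3.92 in EBF1wt and -4.59 in EBF1ΔC. ENSMUST00000103749, the lambda constant region 2, stood at 3.71, 3.95 and 4.11 in Mock, -3.04, -2.19 and -2.89 in EBF1wt, and -2.26, -2.04 and -2.52 in EBF1ΔC. Its differences from Mock were -6.63 and -6.20 (SE 0.23 each, limma adjusted p = 2.7e-07 and 4.7e-07). The variable segment 2, ENSMUST00000103752, differed by -3.86 and -4.17 (SE 0.15 each). No lambda array of either EBF1 group reached a Mock array, and all 5 were called lower under every scaling that was run.

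In the kappa locus (chr6:67506063-70672917), 38 of 64 members were tested; 22 were called lower in EBF1wt and 23 in EBF1ΔC than in Mock, and 0 higher by limma (2 and 3 higher at an unadjusted p under 0.05). These are 57.9% and 60.5% lower, against 17.4% and 16.3% of all tested probes, and 4 members lay above 0 in each comparison. The median differences were -1.18 and -1.33. ENSMUST00000103330 stood at -1.64, -1.35 and -1.44 in Mock, -6.35, -5.07 and -5.41 in EBF1wt, and -6.90, -7.13 and -6.78 in EBF1ΔC, at least 15.1-fold lower in EBF1ΔC. ENSMUST00000103328 was detected in Mock only, at least 6.52-fold lower in EBF1wt and 6.91-fold lower in EBF1ΔC by 1 of its probes. The differences of other segments ran close to 0 or above it: ENSMUST00000103374, described as variable 1-35, was 0.82 and 0.75 higher (SE 0.22 each), which passed the adjusted p but not the fold limit. With normexp background correction and quantile normalization only 3 of 38 were called lower in either comparison, and with median scaling 12 and 14.

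**Figure D4:**
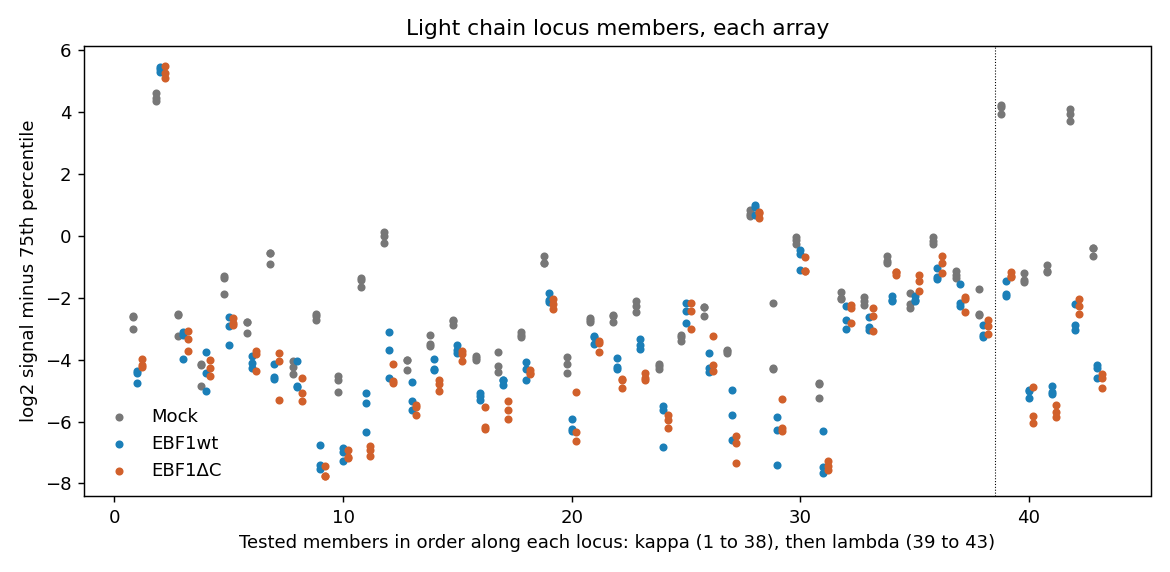
Log2 signal of 38 tested kappa members and 5 tested lambda members on each array, in order along each locus; the dotted line parts the loci. Mock points lie above both EBF1 groups for all 5 lambda members; of the kappa members, 22 were called lower in EBF1wt and 23 in EBF1ΔC.

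On the heavy chain V side, 18 of 29 members were called lower and 3 higher in EBF1wt than in Mock, while in EBF1ΔC 1 was called lower and 8 higher. The count of 8 was 20 with median scaling, 13 with quantile normalization, 15 by the adjusted p alone, 4 with normexp and quantile normalization and 3 with the authors' values. Restricting to probes detected on all 9 arrays left 19 of the 29 members, of which 3 were called higher. The count of 18 rests on EBF1wt replicate 2: without it 5 were called lower. It was also 0 with normexp background correction and quantile normalization and 3 with median scaling. ENSMUST00000103529 was detected on the Mock arrays alone, at -3.35, -3.70 and -4.71, and was at least 2.62-fold lower in EBF1wt and 2.78-fold lower in EBF1ΔC. ENSMUST00000103452 went the other way, undetected in Mock and at least 2.18-fold higher in EBF1wt and 10.3-fold higher in EBF1ΔC. Its values were -4.44, -4.97 and -3.26 in EBF1wt and -1.87, -1.64 and -2.45 in EBF1ΔC (difference 2.24, SE 0.42, limma adjusted p = 0.02).

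Outside the immunoglobulin loci, the members with the deepest falls were spread over the genome. TC1636390 (chr1:85157458-85157517, plus strand), matched in its description to the nuclear body protein SP140, stood at 0.74, 1.1 and 1.03 in Mock, -4.80, -6.38 and -4.59 in EBF1wt, and -4.31, -3.91 and -4.72 in EBF1ΔC. It was well above background on 2 of 3 EBF1wt arrays and all others, and fell by 6.21 and 5.27 on the log2 scale (SE 0.43 each, limma adjusted p = 9.4e-06 and 2.3e-05). NAP102400-1 stood at -2.22, -1.42 and -1.38 in Mock and was detected on no EBF1 array, at least 12.4-fold lower in EBF1wt and 13.2-fold lower in EBF1ΔC. NAP061805-1, without a position, was at least 23.0-fold and 24.4-fold lower. None of these overlapped with Mock, and none was called between the EBF1 groups.

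NAP102845-1 (chr19:55993303-55993362) was detected on all 3 Mock arrays and on none of the other 6, at least 15.2-fold lower in EBF1wt and 16.1-fold lower in EBF1ΔC. Its neighbour Tcf7l2, a transcription factor of the Wnt pathway 6049 bases away on the same strand, differed by -1.24 and -1.11 (limma adjusted p = 0.029 and 0.045). TC1625932 beside Gimap6, a lymphocyte GTPase, fell by 2.41 and 2.18, and Gimap6 itself by 1.59 and 1.48. ENSMUST00000138143 beside the interferon-activated gene Ifi203 fell by 2.35 and 2.13, and Ifi203 by 1.91 and 1.22. In these 3 places the member and the named gene were called lower together in both comparisons.

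Members higher in the EBF1 groups included ENSMUST00000173089 (chr4:44537936-44537995, minus strand), a predicted gene. It stood at 1.17, 1.14 and 0.89 in Mock, 3.71, 3.88 and 3.63 in EBF1wt, and 3.73, 3.59 and 3.67 in EBF1ΔC. It rose by 2.67 and 2.60 (SE 0.10 each, limma adjusted p = 5.1e-07 and 6.3e-07), with all EBF1 arrays above all Mock arrays and a difference of -0.07 between the EBF1 groups. NAP055718-1, the probe with the g and t repeat, stood at 0.44, 0.04 and -0.28 in Mock, 3.33, 3.67 and 2.05 in EBF1wt, and 1.92, 2.32 and 3.40 in EBF1ΔC. It rose by 2.95 and 2.48 (SE 0.48 each). NAP026921-1 rose by 1.84 and 2.41 (SE 0.17 each), and the EBF1ΔC arrays lay above the EBF1wt arrays by 0.57, which did not pass (limma adjusted p = 0.1).

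**Figure D5:**
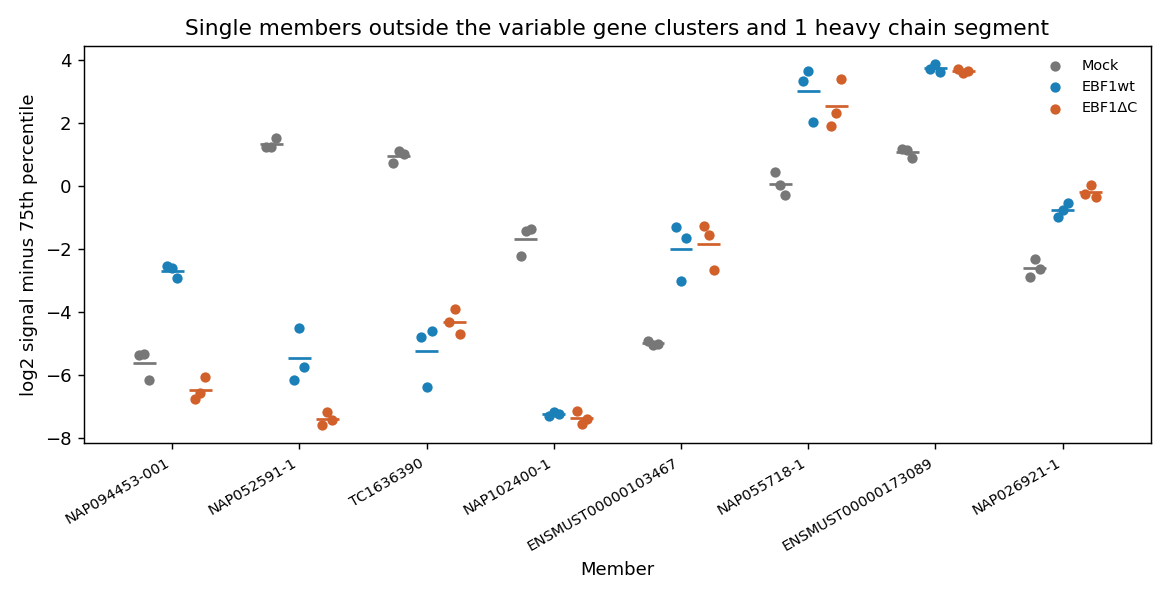
Log2 signal of 8 members on each array (points; bars are group means). NAP094453-001 is high in EBF1wt alone, NAP052591-1, TC1636390 and NAP102400-1 are high in Mock, and the other 4 are lowest in Mock.

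Against Mock, most nearest named genes on the strand of a called member were not called, as was the case for most tested probes. Within 10 kb, 263 tested members had such a tested neighbour on the same strand. Of 106 of these members called lower in EBF1wt than in Mock, the neighbour was called lower in 21, higher in 1 and not called in 84; of 151 members not called, the neighbour was called lower in 13, and the background was 17.4% of all tested probes. For EBF1ΔC the neighbour was lower in 20 of 96 and in 9 of 159, and the background was 16.3%. TC1700199, matched to ribosomal protein S2 and 76 bases from a probe of Rps2, fell by 1.58 and 1.73 (SE 0.10 each), while Rps2 differed by 0.07 and 0.30 and did not pass. ENSMUST00000129311, an Ensembl transcript of ribosomal protein L13, fell by 1.20 and 1.58 (SE 0.12 each) 217 bases from an Rpl13 probe that differed by 0.13 and 0.25. TC1645804 beside the translation factor Eif3c rose by 1.48 and 1.53 (SE 0.08 each), and Eif3c by 0.70 and 0.69, under the fold limit. The difference between a member and its neighbour was not tested.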

How the data were processed

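Cy3-labelled RNA of 9 samples was hybridised in 1 colour to mouse 4x44K arrays from Agilent. Per the file headers the spot intensity is Agilent Feature Extraction's background-subtracted, detrended signal (version 10.5.1.1; the submitters' processing notes name 9.1), positioned on mm9. The deposited series table holds log2 values whose normalization is not given in the sources used here; they correlated across probes with normexp and quantile values and served as an alternative.

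The 75th percentile of its array was subtracted from each log2 signal, outlier spots were dropped and spots of a probe averaged. All 9 arrays entered 1 limma 3.58.1 model (R 4.3.3), with 6 residual degrees of freedom, which was tested on simulated data. SE is the standard error of the model. Sequence runs of at least 30 bases and neighbours within 10 kb came from the files' own sequences and positions.

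Members, lists and tests were chosen with earlier results of these data known. Members named were, per comparison, the 5 highest and 5 lowest called members detected in both groups without overlap, the 3 largest bounds each way, the extremes of each class and, in each list, at most 3 called members. Locus limits, the V-side set, signal bands, and the remarks on neighbours and uncalled members were chosen after values were seen. Planned locus lists for the T-cell receptor alpha, Klr and histone genes, whose name patterns took in other genes, were replaced by descriptions or dropped. Planned lists for the T-cell receptor beta and gamma, beta-globin and Gbp loci were not used either. The heavy chain and kappa limits used descriptions as well as the planned gene names, and the lambda limits used descriptions alone. Alternatives were other background corrections, scalings, filters, blocks, array weights, thresholds and left-out arrays. Some markers of the cell type check are not reported here.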

Additional observations from a re-analysis of the deposited data

How the results depend on the processing

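Counts of called members are given as higher, then lower. With normexp background correction and quantile normalization, and with the authors' values, the counts were 13 and 0 between EBF1ΔC and EBF1wt under both. For EBF1wt against Mock they were 22 and 63, and 20 and 62; for EBF1ΔC against Mock 37 and 61, and 37 and 56. Quantile normalization alone gave 87 and 190 for EBF1wt against Mock and 103 higher for EBF1ΔC against Mock. Median scaling gave 276 and 140, and 239 and 151. The adjusted p alone called 255 higher in EBF1wt than in Mock, 278 and 399 in EBF1ΔC against Mock, and 15 lower in EBF1ΔC than in EBF1wt. Restricting to probes detected on all 9 arrays left 157 and 134 lower against Mock, and 1 lower between the EBF1 groups. That last count was 2 with no filter, 2 with only the 2 groups fitted and 0 with the slide as a fixed block, which also gave 0 higher (limma; 69 higher and 49 lower members at an unadjusted p under 0.05). Both remaining alternatives were added after seeing the data: without the heavy chain locus the count higher in EBF1ΔC than in EBF1wt was 2, and without members sharing 30 or more bases with another probe it was 15.

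Leaving out each array gave 19 to 28 higher and 2 to 6 lower between the EBF1 groups; the count of 2 came without EBF1wt replicate 2 or EBF1ΔC replicate 3. Against Mock it gave 48 to 58 and 265 to 313 in EBF1wt, and 56 to 76 and 233 to 271 in EBF1ΔC. Deviations of same-numbered arrays from their group means correlated weakly (r from -0.14 to 0.14). With 3 arrays a group this check cannot exclude that the numbers pair the samples. With the replicate block 23 and 3 members were called between EBF1ΔC and EBF1wt, 53 and 292 between EBF1wt and Mock, and 60 and 241 between EBF1ΔC and Mock. The difference of ENSMUST00000103337 between EBF1wt and Mock turned from -1.10 to 0.021 with normexp and quantile normalization and to 0.025 with the authors' values; the cause was not tested. Dim probes limit all of these values, since 40.3% of members were above background on no array.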

Other observations

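Against Mock, 17.4% of all tested probes were called lower in EBF1wt and 16.3% in EBF1ΔC, and 6.09% and 6.05% higher. Of 26 tested members described as ribosomal, 3 were called lower in EBF1wt and 5 in EBF1ΔC than in Mock, which is 11.5% and 19.2%, and 0 higher by limma (5 and 4 higher at an adjusted p under 0.05 alone). Of 10 probes described as zinc finger proteins, 1 and 2 were called higher. ENSMUST00000098479, a transcript of Zfp319, had 2 tested probes, of which 1 differed by 1.28 in both comparisons. The other differed by 0.93 in EBF1wt and 1.14 in EBF1ΔC and was called in EBF1ΔC alone. These counts of probes are therefore not counts of separate transcripts. Of 7 described as retroelements, 4 were called lower in each (57.1%). Of 10 tested members in the major histocompatibility locus, 4 and 2 were called lower (40% and 20%), including ENSMUST00000023469, described as a butyrophilin-like gene, at least 2.76-fold lower in EBF1wt and 2.93-fold lower in EBF1ΔC. In the T-cell receptor alpha locus, where 6 of 11 members were tested, the constant region ENSMUST00000103740 was called lower in both; it was detected on 1 EBF1wt and no EBF1ΔC array, and was at least 3.04-fold lower in EBF1ΔC. The predicted gene ENSMUST00000103600 in the same locus was at least 2.51-fold higher in each; it lay at -3.99, -4.03 and -4.26 in EBF1wt and -4.09, -4.07 and -4.13 in EBF1ΔC. None of these members was called between EBF1ΔC and EBF1wt.

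In the brightest of the 3 signal bands, 23 of 242 members were called higher in EBF1wt (9.50%) and 28 in EBF1ΔC (11.6%) than in Mock, against 5.48% and 4.97% of the other probes in that band. Among the members of highest signal, ENSMUST00000091052, a pseudogene of ribosomal protein L32, had log2 signals from 8.75 to 9.07 over the 9 arrays, and NAP102909-1 from 8.55 to 9.09, with differences between groups of at most 0.20. Of 21 transcripts with more than 1 tested probe, 0 had probes called in opposite directions in any of the 3 comparisons, while the probes of a transcript differed by up to 2.35 between EBF1wt and Mock and 2.92 between EBF1ΔC and Mock.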
